A study of Mus musculus with 12 samples.

Results

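The ectonucleotidases and adenosine-handling genes described here are 5 of the 7 genes Entpd1, Nt5e, Ada, Dpp4, Adk and a pair of adenosine receptor genes, out of 19938 genes named on the arrays. A gene was taken by its symbol, at its brightest row, and each of the 5 had 1 row. No row was paired with either receptor gene, and both are not analysed here. RNA came from CD8+CD28low regulatory T cells of C57Bl/6 mice, either wild type (WT) or Aire ko (KO), which lack the thymic transcriptional regulator Aire. Native cells were freshly isolated, and activated cells had been kept in culture for 96 h together with allogenic APC (antigen-presenting cells) and antibody to CD3. Each of the 4 groups held 3 arrays that the titles call biological replicates. The sources used here do not give the age of the mice, the number of mice behind an array or the design of the Aire allele, and p-values measure the spread between these arrays. The activated groups were cultured and the native groups were not, so stimulation, time in culture and contact with the presenting cells cannot be told apart.

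Extracellular ATP and ADP are cut to AMP by CD39, the product of Entpd1, and AMP is cut to adenosine by CD73, the product of Nt5e. Adenosine signals through receptors that raise cyclic AMP and restrain T cells, which is why both enzymes are studied on regulatory lymphocytes. Adenosine is removed by adenosine deaminase, encoded by Ada, which turns it into inosine and can be held at the cell surface by CD26, a peptidase encoded by Dpp4. Inside the cell, adenosine kinase, encoded by Adk, returns it to AMP.

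Levels are log2 values from the robust multi-array average (RMA), and a level at or under the 95th percentile of olfactory receptor genes on the same array (6.12 to 7.31 over the 12 arrays) is called background. All 9 measured genes of CD8 T cell identity lay above it in every group, and Cd4 lay at background in every group. Cd28 was among the 9 (9.98 to 11.97), so its transcript was not low in these cells labelled CD28low. Its native means were 11.50 in WT and 11.53 in KO cells, beside 11.63 and 11.55 for Cd8b1. The Aire transcript lay at background on all 12 arrays (5.55 to 5.92) and gave no check of the genotype labels. Activated KO array 3 stood apart: it had the highest background level (7.31), the narrowest interquartile range (2.19, against 2.45 to 2.89 on the others) and a score of 63.8 on the second principal component, where the other arrays lay between -28.7 and 6.3. Its background level lay above its own values of Nt5e, Ada and Adk, and the KO activation values that it moves most are also given without it. Xist, the X-inactivation RNA of female cells, was low on KO array 1 of both states (5.26 native, 4.98 activated; all others 9.34 to 11.47), while the Y-linked Kdm5d, Eif2s3y and Uty lay above background on all 12 arrays (7.25 to 10.23). The Y-linked genes differed between KO and WT cells by 0.69 to 0.77 in native and 0.52 to 0.62 in activated cells, none of them called. The mix of sexes thus differed within the KO groups and may differ between genotypes, and its part in the results was not tested.

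The start-site windows are shown for Entpd1 and Nt5e, the genes called on activation, and for Dpp4, which had the next largest difference but was not called in the fit of all arrays. The arrays do not tell which start a transcript came from. They come from RefSeq (GRCm38.p6) and run from 250 bases before to 50 bases after a start; all 5 genes matched, with 7 windows in all. Entpd1 has an upstream start (chr19:40612116-40612415, plus strand) and a downstream start (chr19:40659520-40659819, plus strand), Nt5e has 1 start (chr9:88327359-88327658, plus strand) and Dpp4 has 1 start (chr2:62412182-62412481, minus strand). Capitals mark matches, on either strand, to the Sp1 motif GGGCGG or the NFAT core GGAAA.
Entpd1 upstream start: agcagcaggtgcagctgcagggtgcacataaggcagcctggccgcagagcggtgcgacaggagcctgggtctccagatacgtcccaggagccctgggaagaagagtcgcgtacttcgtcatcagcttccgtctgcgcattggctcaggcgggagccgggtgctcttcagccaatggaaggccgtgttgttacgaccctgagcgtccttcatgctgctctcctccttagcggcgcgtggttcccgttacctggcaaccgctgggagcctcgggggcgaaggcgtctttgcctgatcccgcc
Entpd1 downstream start: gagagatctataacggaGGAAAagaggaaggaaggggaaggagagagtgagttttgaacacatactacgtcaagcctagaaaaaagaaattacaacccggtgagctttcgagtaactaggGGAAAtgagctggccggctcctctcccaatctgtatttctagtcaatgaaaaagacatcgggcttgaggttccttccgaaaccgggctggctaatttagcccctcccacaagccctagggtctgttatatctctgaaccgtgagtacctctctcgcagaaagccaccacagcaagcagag
Nt5e start: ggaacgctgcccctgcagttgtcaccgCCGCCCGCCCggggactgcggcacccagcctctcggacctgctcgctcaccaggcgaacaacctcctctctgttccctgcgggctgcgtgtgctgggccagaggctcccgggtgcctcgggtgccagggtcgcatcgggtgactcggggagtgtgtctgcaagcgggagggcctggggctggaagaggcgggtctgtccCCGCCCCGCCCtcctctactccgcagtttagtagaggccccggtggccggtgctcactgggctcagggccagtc
Dpp4 start: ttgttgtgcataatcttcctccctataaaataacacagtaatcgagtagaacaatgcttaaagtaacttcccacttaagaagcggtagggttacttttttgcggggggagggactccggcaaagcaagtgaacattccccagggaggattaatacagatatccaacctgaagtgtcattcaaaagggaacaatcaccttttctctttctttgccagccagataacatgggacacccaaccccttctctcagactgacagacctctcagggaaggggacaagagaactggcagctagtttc
The Nt5e window held 4 Sp1 matches, overlapping ones included, and had a GC content of 71%. The Dpp4 window and the upstream Entpd1 window held no match, with a GC content of 45.3% and 64%. The downstream Entpd1 window held 2 NFAT core matches and had a GC content of 48.7%. Ada and Adk, not printed, held Sp1 matches in each of their windows, 2 for Ada and 4 in each of the pair for Adk, and the Ada window and 1 of the Adk windows also held 1 NFAT core match each. None of the 7 windows held the AP-1 motif TGANTCA, the CRE motif TGACGTCA or the hypoxia core ACGTG. Of all 32851 windows of 300 bases, 35.7% held the Sp1 motif, 61.3% the NFAT core, 7.81% the AP-1 motif, 1.79% the CRE motif and 19.6% the hypoxia core.

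The comparison of activated with native cells asks how culture with antigen-presenting cells and anti-CD3 changed these genes in each genotype. In both genotypes Entpd1 rose about 10-fold (10.6-fold in WT, 9.17-fold in KO) while Nt5e fell 3.81-fold in WT and 4.51-fold in KO cells. The KO size of Nt5e rests in part on activated KO array 3, where it lay at background. Without that array its log2 difference was -1.50 rather than -2.17. The enzyme that starts the extracellular breakdown of ATP and the enzyme that finishes it thus moved in opposite directions at the transcript level. Dpp4, Ada and Adk were not called in either genotype in the fit of all 12 arrays, and Dpp4 and Adk were called under some of the alternatives given with their values and in the closing section. Of the 5 genes, 1 rose and 1 fell in WT cells, where limma called 20.6% of all genes at an adjusted p under 0.05 (9.72% higher and 10.9% lower). The count was the same in KO cells, where it called 20.1% (8.72% higher and 11.4% lower). Activated and native arrays did not overlap for 2 of the 5 genes in WT cells, against 41% of all genes, and for 3 of the 5 in KO cells, against 30.9%.

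Entpd1 lay at 6.30, 6.49 and 6.29 on native WT arrays 1, 2 and 3 and at 6.90, 6.57 and 6.76 on native KO arrays. On activated arrays it lay at 9.69, 9.03 and 10.57 in WT and 9.97, 9.75 and 10.10 in KO. Every activated array lay more than 2 log2 units above every native array, and native WT array 3 was at background. The activated minus native difference was 3.41 ± 0.29 (SE, n = 3 per group) on the log2 scale in WT cells, with a limma adjusted p of 7.99e-06, and 3.20 ± 0.29 in KO cells, with an adjusted p of 1.44e-05. Only 53 genes in WT and 52 in KO cells had a larger rise. The call held without any 1 array, at differences from 3.00 to 3.77 in WT and 3.11 to 3.29 in KO cells. Native values lay close to background, where RMA compresses differences.

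Nt5e went from 9.57, 9.40 and 9.30 on native WT arrays to 7.70, 7.88 and 6.89 on activated WT arrays. KO arrays read 9.76, 9.30 and 9.58 before and 7.69, 8.40 and 6.04 after culture. Activated and native arrays did not overlap, and the spread grew from an SD of 0.13 to 0.53 in WT and from 0.23 to 1.21 in KO cells. The difference was -1.93 ± 0.46 (SE, n = 3 per group) in WT cells, with a limma adjusted p of 0.0113, and -2.17 ± 0.46 in KO cells, with an adjusted p of 0.00614. In WT cells the call was lost without activated WT array 3 (-1.63, adjusted p = 0.0538), the WT array with the lowest level. In KO cells it held without activated KO array 3 (-1.50, adjusted p = 0.00224), where Nt5e (6.04) lay at background.

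**Figure D1:**
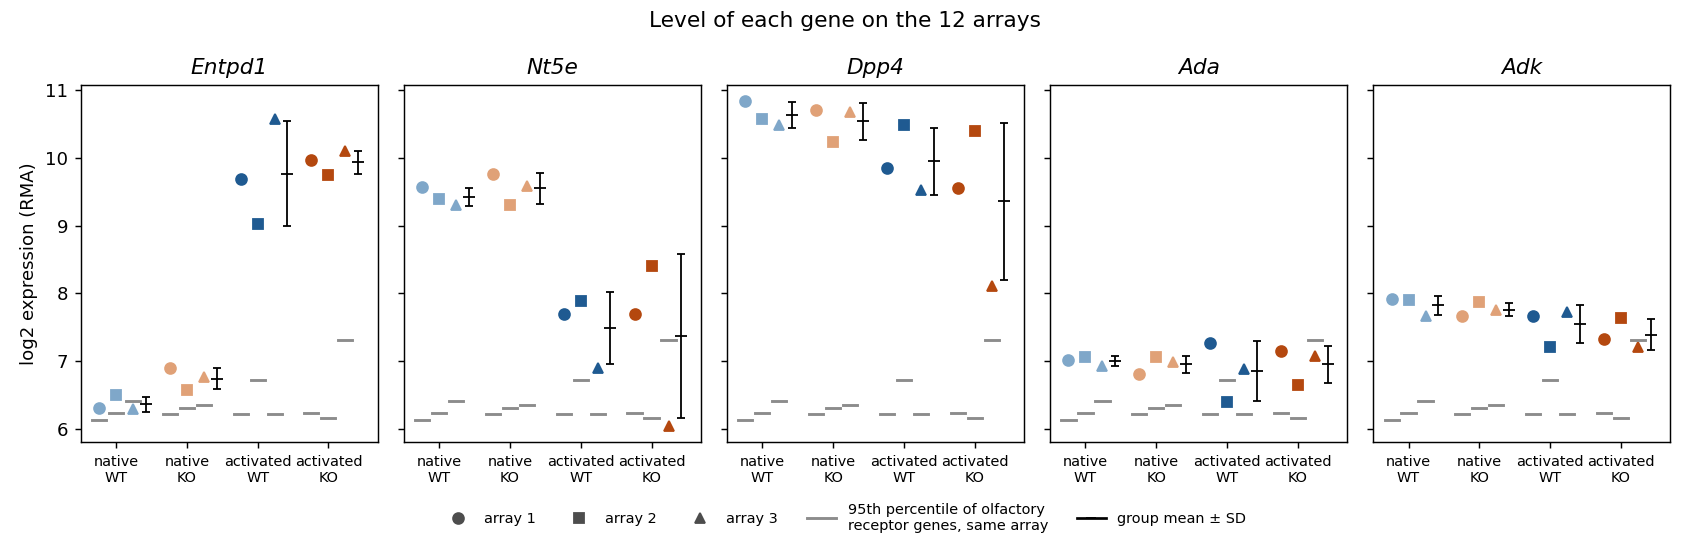
Log2 expression (vertical axis) of the 5 genes on the 12 arrays, by group, with array numbers as symbols, the group mean ± SD (n = 3) in black and each array's background level as a grey bar. Entpd1 sits at 6.29 to 6.90 on native and 9.03 to 10.57 on activated arrays, while Nt5e sits at 9.30 to 9.76 and 6.04 to 8.40.

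Dpp4, which encodes the surface peptidase that binds adenosine deaminase, read 10.84, 10.58 and 10.49 on native WT arrays and 9.85, 10.49 and 9.53 on activated ones. The KO arrays read 10.71, 10.23 and 10.68 when native and 9.56, 10.40 and 8.11 when activated. Activated array 2 of each genotype stayed within or at the edge of the native range, and the groups overlapped. The difference was -0.68 ± 0.45 (SE, n = 3 per group) in WT cells (95% interval -1.66 to 0.30; limma adjusted p = 0.372) and -1.19 ± 0.45 in KO cells (-2.17 to -0.21; adjusted p = 0.0896). In KO cells it was -0.56 without activated KO array 3 and -1.71, and called (adjusted p = 0.00727), without activated KO array 2. It was also called with dim genes left out before the fit (-1.19, adjusted p = 0.0473).

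Ada, the deaminase that clears adenosine, lay between 6.81 and 7.06 on the 6 native arrays and between 6.39 and 7.27 on the 6 activated ones. Activated WT array 2 (6.39) and activated KO array 3 (7.08) were at the background of their arrays. The activated minus native difference was -0.15 ± 0.20 (SE, n = 3 per group) in WT cells, with a 95% interval from -0.59 to 0.29, and 0.00 ± 0.20 in KO cells, from -0.43 to 0.44. Adk, the kinase that turns adenosine back into AMP, lay between 7.67 and 7.91 on native and between 7.20 and 7.73 on activated arrays. Its difference was -0.29 ± 0.16 in WT cells (-0.63 to 0.06) and -0.37 ± 0.16 in KO cells (-0.72 to -0.02; limma adjusted p = 0.136; -0.27 without activated KO array 3). For both genes these intervals leave out changes as large as those of Entpd1 and Nt5e.

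**Figure D2:**
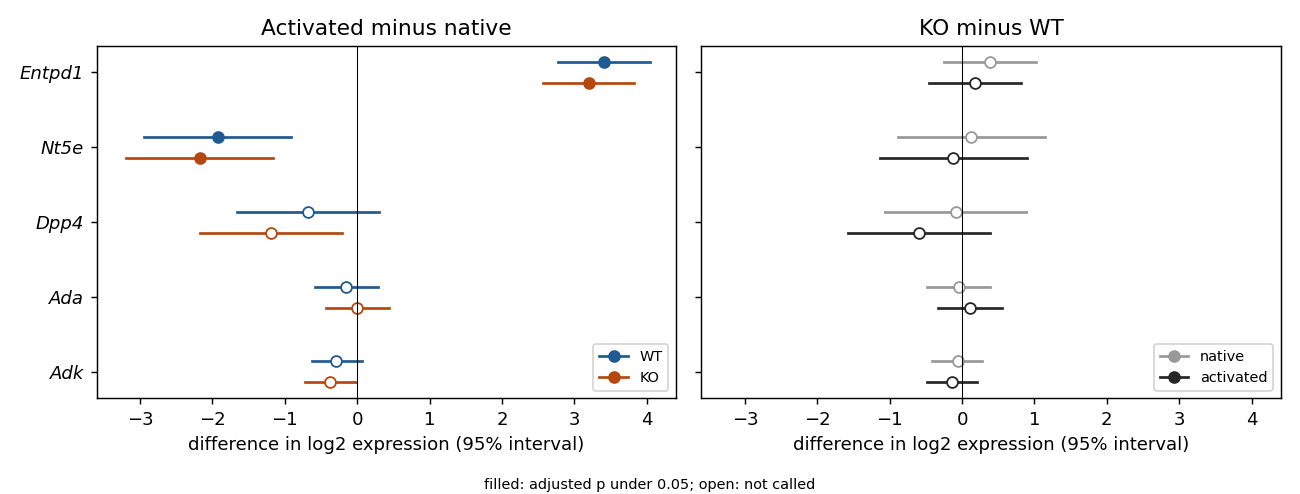
Differences in log2 expression (horizontal axis) with 95% intervals of the limma fit for the 5 genes, activated minus native on the left and KO minus WT on the right. Entpd1 (3.41 and 3.20) and Nt5e (-1.93 and -2.17) are the genes with filled points, and every interval on the right crosses 0.

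Among the activated arrays, the levels of Entpd1, Nt5e and Dpp4, the last not called, were spread out. Entpd1 was lowest on array 2 of each genotype (9.03 and 9.75) and highest on array 3 (10.57 and 10.10), and Nt5e and Dpp4 were highest on array 2 and lowest on array 3 of each genotype. Over the 6 activated arrays, Nt5e and Dpp4 had a Pearson's r of 0.93 (Spearman's rho 0.94; r = 0.77 without activated KO array 3, and 0.70 without the pair of arrays farthest from the median of Nt5e). The first principal component of all genes, along which native and activated arrays part (68.2% of the variance), was lowest among activated arrays on WT array 2 (33.6) and KO array 2 (39.0) and highest on WT array 3 (53.1) and KO array 3 (49.4). With that score Entpd1 had an r of 0.94 (0.75 without its 2 farthest arrays) and Nt5e an r of -0.71 (-0.48 likewise). Dpp4 had an r of -0.72 with it (-0.94 without activated KO array 3). These are descriptions over 6 arrays of both genotypes, and activated WT array 2 also had the second highest background level (6.72). The mean level of the CD8 T cell identity genes ran the same way as Dpp4: 11.16, 11.40 and 11.05 on activated WT arrays and 11.00, 11.44 and 10.29 on activated KO arrays, and the part of T cell content in these values was not tested. In bulk RNA, fewer cells with a transcript and less of it per cell cannot be told apart.

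**Figure D3:**
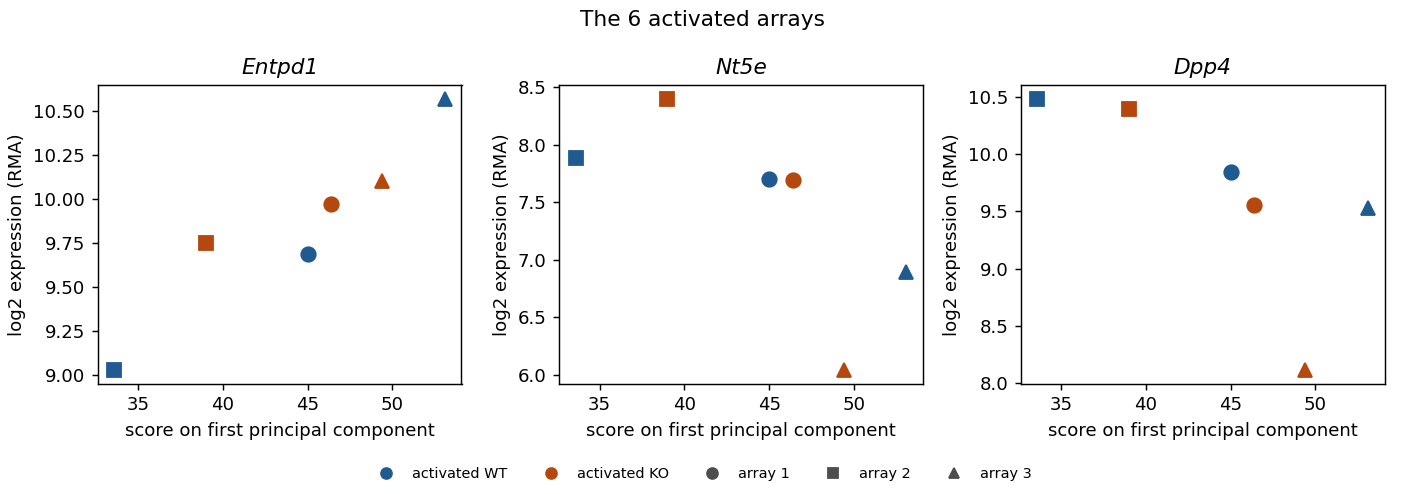
Log2 expression of Entpd1, Nt5e and Dpp4 (vertical axes) against the score on the first principal component of all genes (horizontal axis) on the 6 activated arrays, with genotype as colour and array number as symbol. Entpd1 is higher and Nt5e and Dpp4 are lower on arrays with a higher score, and the array 2 of each genotype has the lowest scores (33.6 and 39.0).

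Several other cell types carry CD39, among them B cells and macrophages, and the activated cells had been in contact with presenting cells. Of 9 B cell markers, 7 lay at background in activated WT and in activated KO cells, among them Ms4a1, Cd79a and Pax5, and the list's mean level on an array was 5.75 to 5.89 and 5.73 to 5.91, against 5.89 to 5.95 in native WT and 5.92 to 6.15 in native KO cells. Cd79b lay above background on every array, at means of 9.31 and 9.27 in native and 8.78 and 8.35 in activated WT and KO cells. Cd22 lay above background on some arrays of every group. Of 11 macrophage and dendritic cell markers, 10 lay at background in activated WT and 9 in activated KO cells, among them Csf1r, Adgre1 and Lyz2, at mean levels of 5.81 to 5.91 and 5.84 to 5.96. Of 10 neutrophil markers, 9 lay at background in each activated group. No marker of these 3 lists was called higher on activation in either genotype, against 9.72% of all genes in WT and 8.72% in KO cells. In KO cells 5 neutrophil (50%), 3 macrophage and dendritic cell (27.3%) and 1 B cell marker (11.1%) were called lower, against 11.4% of all genes. In WT cells these counts were 0, 0 and 1, against 10.9% of all genes. Cd68, a macrophage marker above background in every group, differed by 0.92 ± 0.50 (SE, n = 3 per group) in WT and 0.73 ± 0.50 in KO cells (limma adjusted p = 0.256 and 0.401). Among 8 NK cell markers Klre1 rose by 0.85 and 0.83 and Eomes by 0.52 in WT cells, while 1 was called lower in WT and 2 in KO cells. Fcer1g was not called but had the largest positive difference of this list, 1.23 for WT, 0.99 for KO. Its native WT arrays read 9.13, 8.45 and 8.53, its activated WT arrays 10.33, 8.30 and 11.18. For KO, native arrays read 10.10, 9.13 and 9.66, activated arrays 10.97, 9.44 and 11.44. Like Entpd1, Fcer1g was lowest on activated array 2 and highest on activated array 3 of each genotype. Ncr1 (mean 6.74 in native WT and 7.39 in native KO cells) and Klra8 (6.55 and 7.09) lay at background in both activated groups. Among 7 markers of CD4 and regulatory T cells, Il2ra, the interleukin 2 receptor chain that activated CD8 T cells also carry, rose by 6.01 and 5.55, and Zbtb7b rose from background by at least 1.42 and 1.06. In each genotype 1 of the 7 was called lower, and Cd4, Cd40lg and Foxp3 lay at background in both activated groups. The part of these cells in the activation values was not tested.

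The comparison of KO with WT cells asks whether loss of Aire altered these genes. None of the 5 genes was called in native or in activated cells by limma, which called 0% of the 19938 genes in each state (131 genes in native and 87 in activated cells had an unadjusted p under 0.05, 0 of the 5 among them). Of the 5 genes, Entpd1 had the largest native difference, at 0.38 ± 0.29 (SE, n = 3 per group, 95% interval -0.25 to 1.02, limma adjusted p = 1). Its lowest native KO array (6.57) lay just above its highest native WT array (6.49). Entpd1 was the 1 gene of 5 whose native groups did not overlap, against 7.04% of all genes. The difference ran from 0.31 without native KO array 1 to 0.47 without native KO array 2 and was not called without any 1 array. Markers of other cells also differed between native KO and WT cells, none of them called. The mean level of the 10 neutrophil markers was 6.76, 5.91 and 5.56 on native WT arrays 1, 2 and 3 and 8.27, 6.04 and 7.81 on native KO arrays. All 10 lay higher in KO cells, with a median difference of 1.21. Of the 11 macrophage and dendritic cell markers 9 lay higher, at mean levels of 5.96, 6.03 and 5.77 on WT arrays against 6.38, 6.03 and 6.41 on KO arrays, with 8 and 7 markers at background. NK cell markers lay at 7.66, 7.21 and 7.20 on native WT arrays and 8.35, 7.61 and 7.90 on native KO arrays, and the part of these cells in the Entpd1 value was not tested.

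The other native differences were 0.12 ± 0.46 for Nt5e (95% interval -0.89 to 1.14), -0.09 ± 0.45 for Dpp4 (-1.07 to 0.89), -0.04 ± 0.20 for Ada (-0.48 to 0.39) and -0.06 ± 0.16 for Adk (-0.41 to 0.28), with n = 3 per group. These errors use the spread of all groups; when only the 6 native arrays were fitted they were 0.13 for Nt5e, 0.14 for Dpp4 and 0.11 for Entpd1. In activated cells Dpp4 differed most, by -0.60 ± 0.45 (-1.58 to 0.38), and by 0.026 without activated KO array 3. Entpd1 differed by 0.18 ± 0.29 (-0.46 to 0.81), Nt5e by -0.12 ± 0.46 (-1.14 to 0.90), Ada by 0.11 ± 0.20 (-0.33 to 0.55) and Adk by -0.14 ± 0.16 (-0.49 to 0.20). Without activated KO array 3 the Nt5e difference turned to 0.55, and without activated WT array 2 that of Entpd1 turned to -0.19. In activated cells the intervals of Nt5e and Dpp4 reach past 1 log2 unit. For each of the 5 genes the activated WT and KO arrays overlapped; they did not for 1.75% of all genes.

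Whether activation acted differently in the genotypes was tested by the interaction, the KO response minus the WT response. It was -0.21 ± 0.41 (SE, n = 3 per group) for Entpd1, with a 95% interval from -1.10 to 0.69, and -0.24 ± 0.66 for Nt5e, from -1.68 to 1.20. For Dpp4 it was -0.50 ± 0.63 (-1.89 to 0.88), for Ada 0.15 ± 0.28 (-0.46 to 0.77) and for Adk -0.08 ± 0.22 (-0.57 to 0.41). Limma called none of them, and 0% of all genes (86 had an unadjusted p under 0.05).

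The genes around this pathway were followed in 5 further lists, each set beside the median of all genes, -0.02 on activation in WT and 0.02 in KO cells. Of their 95 measured genes, 27 were called on activation in WT and 28 in KO cells, and 24 were called in the same direction in both (88.9% of the WT and 85.7% of the KO calls). The comparisons share no arrays, but the fit gives them a common estimate of each gene's spread, so their calls are not independent. Of all genes, 20.6% were called in WT and 20.1% in KO cells, against 28.4% and 29.5% of the 95, and 3405 were called in the same direction in both (82.9% of the WT and 85.1% of the KO calls). Over all genes, 9.72% rose and 10.9% fell in WT cells, and 8.72% rose and 11.4% fell in KO cells. None was called in opposite directions. None was called between KO and WT cells in either state.

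Among 10 other ectoenzymes of nucleotides and NAD, none rose and 3 fell in each genotype (30% called), with a median of -0.15 in WT and -0.02 in KO cells. Acpp, an acid phosphatase that can also make adenosine from AMP, fell from 8.70, 8.46 and 8.50 on native WT arrays to 6.98, 7.42 and 6.20 on activated ones, and from 8.86, 8.53 and 8.59 to 7.43, 7.95 and 6.93 in KO cells. Like Nt5e, it was lower on every activated array than on every native one. The Acpp difference was -1.69 ± 0.29 (SE, n = 3 per group) in WT and -1.23 ± 0.29 in KO cells (limma adjusted p = 0.00159 and 0.0112), and -0.97 in KO cells without activated KO array 3. Its values on activated WT array 3 (6.20) and activated KO array 3 (6.93) were at background, so these sizes rest in part on background values. Enpp4, an ectophosphodiesterase, fell by 1.43 and 0.91 on the log2 scale. Enpp5, of the same family, was at background after activation, and its fall was at least 0.07 in WT and 0.01 in KO cells (0.38 without activated KO array 3).

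Of 27 intracellular enzymes of purine nucleosides, 6 rose and 2 fell in each genotype (29.6% called), with a median of 0.11 in WT and 0.06 in KO cells. Ak4, a mitochondrial adenylate kinase, was at background in native cells (5.05 to 5.30) and lay at 10.85, 10.49 and 10.85 on activated WT arrays, and at 11.00, 10.92 and 7.52 on those of KO cells. Its rise was at least 4.47 in WT and 3.52 in KO cells, and activated KO array 3 was low beside the other 5; without it the KO rise was at least 4.67. Adssl1, an adenylosuccinate synthase, rose from background by at least 1.73 in WT and 1.56 in KO cells. On activated KO array 3 it was still at background (6.38), and without that array the KO rise was at least 2.30. Hprt, the salvage enzyme of hypoxanthine and guanine, rose by 0.94 ± 0.16 and 0.90 ± 0.16 (SE, n = 3 per group), and Entpd7, an intracellular relative of CD39, by 0.71 and 1.01. Ampd3 and Ampd1, deaminases that draw AMP away from adenosine formation, fell to background: by at least 0.59 and 0.58 for Ampd3 and 0.70 and 0.40 for Ampd1 in WT and KO cells. Without activated KO array 3 the KO falls were at least 0.96 for Ampd3 and 0.77 for Ampd1. In KO cells the Adssl1 call was lost without native KO array 2 (adjusted p = 0.0624), without activated KO array 1 (0.0663) and in a fit of the 6 KO arrays alone (0.0751).

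Of 12 genes of nucleoside transport and nucleotide release, 1 rose in each genotype and 1 fell in KO cells (8.33% called in WT and 16.7% in KO cells). Slc29a1, the equilibrative nucleoside transporter that carries adenosine across the membrane, rose by 0.92 ± 0.17 in WT (SE, n = 3 per group; limma adjusted p = 0.0027) and 0.66 ± 0.17 in KO cells (adjusted p = 0.0174; 0.0645 without native KO array 2 and 0.0619 without activated KO array 1). Slc28a2, a concentrative nucleoside transporter, differed by -0.59 ± 0.24 in WT cells (adjusted p = 0.11) and fell by 0.95 in KO cells (adjusted p = 0.0142; 0.0531 without native KO array 3), a value that was -0.66 without activated KO array 3. The medians of the list were -0.03 and 0.01.

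Of 15 nucleotide receptors, 3 rose in each genotype, and 1 fell in WT and 2 in KO cells (26.7% and 33.3% called). P2ry14, the receptor of UDP-glucose, lay at 6.38, 6.44 and 6.38 on native WT and 10.18, 9.63 and 9.69 on activated WT arrays, and at 6.45, 6.51 and 6.55 against 10.51, 9.98 and 10.27 in KO cells. Its rise was 3.43 ± 0.16 (SE, n = 3 per group) in WT and 3.75 ± 0.16 in KO cells (limma adjusted p = 1.09e-07 and 1.26e-07), and the groups were far apart. The ADP receptors P2ry12 and P2ry13 rose from background, P2ry12 by at least 1.01 in WT and 0.96 in KO cells and P2ry13 by at least 0.19 and 0.44. In KO cells without activated KO array 3 these bounds were 1.08 and 0.21. In each genotype both genes were above background on 2 of the 3 activated arrays. P2rx7, the ATP-gated channel of lymphocytes, fell to background from native levels between 6.33 and 6.57, by at least 0.04 in WT and with no bound above 0 in KO cells (at least 0.30 without activated KO array 3). P2rx4, another ATP-gated channel, fell by 0.86 in KO cells (adjusted p = 0.0243) and differed by -0.49 in WT cells (adjusted p = 0.192). The KO call was lost without native KO array 1 (0.0881) or native KO array 3 (0.0745), and its size was -0.53 without activated KO array 3.

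Of 31 genes of cyclic AMP signalling, 3 rose in each genotype and 8 fell in WT and 7 in KO cells (35.5% and 32.3% called), with a median of -0.06 and -0.12. Crem, a cyclic AMP responsive transcription factor, rose from 6.95, 6.75 and 6.87 to 8.05, 7.58 and 7.99 in WT and from 6.90, 6.66 and 6.73 to 8.38, 7.82 and 7.82 in KO cells, a difference of 1.01 ± 0.17 and 1.25 ± 0.17 (SE, n = 3 per group; limma adjusted p = 0.00131 and 0.000336). Phosphodiesterases, which break down cyclic AMP, went both ways. Pde4a rose from background by at least 0.40 in each genotype (0.63 in KO cells without activated KO array 3). It was above background on 2 of the 3 activated arrays of each genotype. Pde4b fell by 1.14 in WT cells (limma adjusted p = 0.0116). That adjusted p was 0.0508 without native WT array 2 and 0.0512 without activated WT array 3. In KO cells Pde4b fell by 1.39, and it differed by -0.99 without activated KO array 3. Prkar2a, a regulatory subunit of protein kinase A, rose by 0.78 and 0.84. Adcy6, an adenylyl cyclase, fell by 0.96 and 1.21, and Gnal, a stimulatory G protein subunit, fell by at least 0.99 to background in WT and by 1.29 in KO cells. Of the 3 activated arrays, 2 lay at background in each genotype for Adcy6 and in KO cells for Gnal, so these sizes rest in part on background values; without activated KO array 3 the KO differences were -1.05 and -1.07.

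**Figure D4:**
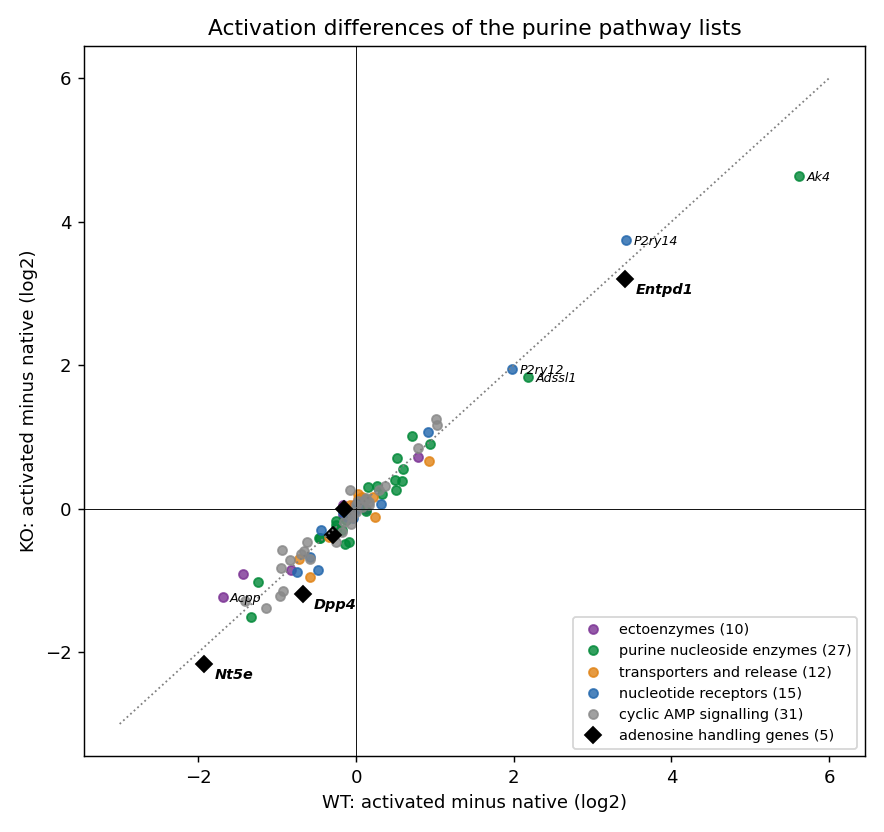
Activated minus native difference (log2) in WT cells (horizontal axis) against that in KO cells (vertical axis) for the 95 genes of 5 pathway lists and the 5 adenosine-handling genes (black diamonds), with the line of equality dotted. Points are fitted values, so Ak4, Adssl1 and P2ry12, which start from background, are plotted at sizes that are not their lower bounds; Entpd1 and P2ry14 lie together at a rise of 3.20 to 3.75 in both genotypes.

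The genes with the most similar pattern over the 12 arrays were named by Pearson's r with each of the 5 genes, as a description of arrays that fall into native and activated clusters. For Entpd1 they were Pdcd1lg2, a ligand of the inhibitory receptor PD-1, at 0.996, and S100a6, a calcium-binding protein, and Acot7, a thioesterase, both at 0.995, while 1122 genes had an r over 0.9. For Nt5e they were the lysosomal sulfatase Sgsh, the kinase Dyrk2 and the F-box gene Fbxl12, each at 0.991, with 1428 genes over 0.9. For Dpp4 they were Hvcn1, a proton channel (0.991), Ypel3 (0.986) and Slamf6, a receptor of the SLAM family (0.981), with 454 genes over 0.9. Adk was nearest to Taf5, a subunit of a general transcription factor (0.973), Agap3 (0.934) and Vps33b (0.928). Ada had no gene over 0.9; its nearest were Hnrnpab, an RNA-binding protein (0.899), Tbrg4 (0.882) and Psma4, a proteasome subunit (0.873).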

How the data were processed

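RNA of 12 arrays was deposited by the authors as log2 expression values (35556 rows per array); the submitters' processing notes name Partek and RMA. Versions, options and genome build: not given in the sources used here. Of the rows, 21789 had 1 gene symbol, 1621 several and 12146 none. Symbols were updated by Entrez identifier (21698 matched) to the GRCm38.p6 gene table, and a gene's brightest row was kept (19938 genes).

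All 12 arrays were fitted together by group with limma 3.58.1 (lmFit and eBayes, R 4.3.3), after the script had been tested on simulated data. P-values were adjusted by Benjamini-Hochberg over all 19938 genes, and an adjusted p under 0.05 made a call. Arrays have no read depth, and 3 per group limit the precision. Background was set on each array by 1027 olfactory receptor genes. Where all 3 arrays of 1 group were at background, a difference is a lower bound against that level, or the gene's own where higher.

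The 5 genes and all lists were chosen with earlier results of these data known. The text names all 5, up to 3 called genes per direction, comparison and list, and the 3 genes most alike to each of the 5; marker genes are named as examples. Correlations over all genes of deviations from the group means were taken between same-numbered KO and WT arrays. Native arrays had 0.58, 0.40 and 0.16, where the highest with another number were -0.21, 0.05 and 0.13. Activated arrays had 0.69, -0.02 and -0.01, against 0.10, 0.28 and 0.12. The reported fit used no pairs. Alternatives were replicate blocks, separate fits, trend and robust moderation, quantile normalization, array weights (gene by gene, as the default algorithm did not converge), a mean over rows, a filter on dim genes (10545 kept), a fit of all rows and leaving out each array.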

Additional observations from a re-analysis of the deposited data

How the results depend on the processing

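Of 530 values of single genes under alternatives other than leaving out an array, 518 kept their direction and side of the threshold. For the 5 genes the difference itself could change only with quantile normalization and array weights. The other settings could change only its error and adjusted p, so they do not test its direction. Array weights, which gave activated KO array 3 a weight of 0.0959 beside 0.324 to 2.69 for the others, gave most of the changes: KO minus WT in activated cells turned to -0.10 for Entpd1 and 0.47 for Nt5e, the interaction to 0.43 for Nt5e and 0.14 for Dpp4, and 4 of the 5 genes were then called on activation in KO cells (Adk at -0.39 and Dpp4 at -0.73 added), as was Dpp4 in WT cells (-0.87, adjusted p = 0.0151). The same weights gave 43 pathway genes and 6930 genes in all called in WT cells, and 6932 genes in KO cells, against 27, 4107 and 4002. In native cells the genes called over the whole array, 0 in the reported fit, were 1 with trend and robust moderation, 2 with array weights, 1 with dim genes left out and 0 to 10 without single arrays. In KO cells Slc28a2 (adjusted p = 0.0548) and P2rx4 (0.102) lost their call in a fit of the 6 KO arrays alone, and P2rx4 (0.055) with quantile normalization.

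With the replicate block, by title number across all groups or by the same number within a state, the same genes of the 5 were called: 0 between KO and WT in native and activated cells, 0 in the interaction and 2 on activation in each genotype. Blocks within a state give no estimate for activated minus native.

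Leaving out 1 array gave 1 to 2 of the 5 genes called in WT activation. Ranges of differences that changed direction were, for native KO minus WT, -0.10 to 0.024 (Ada) and -0.18 to 0.061 (Dpp4). For activated KO minus WT they were -0.19 to 0.58 (Entpd1), -0.63 to 0.55 (Nt5e), -0.12 to 0.32 (Ada) and -1.12 to 0.026 (Dpp4). For Ada on activation they were -0.36 to 0.079 in WT and -0.09 to 0.16 in KO cells. For the interaction they were -0.58 to 0.20 (Entpd1), -0.75 to 0.43 (Nt5e), -0.076 to 0.37 (Ada), -1.03 to 0.12 (Dpp4) and -0.24 to 0.016 (Adk). Enpp5 in WT cells lost its call without native WT array 1 or 3 or activated WT array 3 (adjusted p = 0.0539, 0.0509 and 0.0538). The cause of these changes was not tested. A group was counted as above background where any of its 3 arrays was. By that rule all 20 gene and group combinations lay above background. At the 99th percentile of olfactory receptor genes 19 did, and native WT Entpd1 fell under it.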
